A study of Mus musculus with 2 samples.

Results

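Hippocampal astrocytes were picked out of 2 droplet single-cell RNA libraries by their own transcripts, which gave 1321 astrocytes among 18754 cell barcodes. Library 1 held 1300 of them among 12306 barcodes and library 2 held 21 among 6448. A barcode counted as an astrocyte if it had at least 500 unique molecular identifiers (UMIs, each standing for 1 captured RNA molecule), at least 250 genes and at most 10% of its UMIs from mitochondrially encoded genes. It also needed at least 4 UMIs, at least 0.5% of its UMIs and at least 2 genes from a set of 5, namely Slc1a2, Slc1a3, Aldoc, Gja1 and Aqp4. Barcodes with 1.5% or more of their UMIs from the neuronal RNAs Meg3 and Snhg11, or 0.5% or more from 6 microglial genes (P2ry12, Cx3cr1, Tmem119, Csf1r, Selplg and Gpr34), were left out.

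Astrocytes are the glial cells that surround synapses and blood vessels. They clear glutamate with the transporters encoded by Slc1a2 and Slc1a3, take up potassium, are coupled to each other by the connexins encoded by Gja1 and Gjb6, and hold the water channel encoded by Aqp4 in the processes that line vessels. They also secrete apolipoprotein E, the main lipid carrier of the brain, and after injury many of them raise the intermediate filament gene Gfap, a change called reactivity. In the dentate gyrus of the hippocampus, the neural stem cells share many transcripts with astrocytes.

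The mice were adult C57BL/6 males, wild type and 10 weeks old, and each library pooled the hippocampi of 3 of them. The series set tissue digested with enzymes for 30 min at 37 °C against tissue dissociated mechanically at 4 °C, with a percoll gradient against debris and myelin, to ask what digestion does to the RNA of brain cells. The labels tie neither library to a treatment, and library 2 is numbered differently in its files and in its title, so the libraries are unassigned and are set side by side as single samples. There are no replicates, so no test was possible, and every interval here is an exact 95% interval that covers counting error only, not differences between mice or preparations.

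Library 1 held 18783691 UMIs and library 2 held 29356086. The astrocytes of library 1 were shallow, with a median of 832.5 UMIs and 510 genes, a range of 500 to 5080.0 UMIs, and 75.5% of cells under 1000 UMIs. The 21 astrocytes of library 2 had a median of 3618 UMIs and 1853 genes, with a range of 765 to 10153 UMIs. Astrocytes were 11.5% (10.9 to 12.1) of the 11334 barcodes of library 1 past the depth, gene and mitochondrial limits, a share that was 4.41% at 1000 UMIs and 500 genes and 5.97% with the astrocyte genes at 1% of UMIs. They were 0.85% (0.527 to 1.3) of the 2472 of library 2. The mitochondrial limit weighed most on library 2, since without it the rule found 1380 barcodes in library 1 and 95 in library 2. The lowest depth of any barcode in the files was 500 UMIs in both libraries, so the limit of 500 UMIs left none out. The percoll gradient and this lower end of depth can also set these shares. The libraries had 19 barcode sequences in common, 2 of them astrocytes of library 1 and 0 of them astrocytes in both.

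The values that chose the cells are a description only. Slc1a2, the main glutamate transporter of the adult forebrain, stood at 5937 CPM (5799 to 6078) in library 1 astrocytes and 7420 CPM (6890 to 7980) in those of library 2, where CPM is the gene's UMIs summed over the cells of a class per 1000000 UMIs of that class. A UMI stands for 1 molecule whatever its length, so levels of different genes can be set side by side. Slc1a3, the other glial glutamate transporter, stood at 3086 CPM in library 1 and 3244 CPM in library 2. Aldoc, a glycolytic aldolase of astrocytes, had 517 CPM in library 1 and 2630 CPM in library 2, Gja1 had 781 CPM in library 1 and 2057 CPM in library 2, and Aqp4 had 568 and 655 CPM in libraries 1 and 2. So Slc1a2 led in both libraries, and over all cells Aldoc and Gja1 were the members of the set that differed most between them. Among cells with at least 2000 UMIs, Aldoc had 2986 CPM (2586 to 3430) in 23 astrocytes of library 1. The 19 of library 2 at that depth had 2674 CPM (2355 to 3024), so these intervals overlapped. Of the library 1 astrocytes 416 had 2 of the 5 genes, 547 had 3, 282 had 4 and 55 had all 5, whereas 11 of the 21 deeper astrocytes of library 2 had all 5.

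Depth had to be matched before the share of cells with a transcript could be read, so each cell was thinned at random to 500 UMIs. At that depth Slc1a2 was seen in 92.0% of library 1 astrocytes (98.2% unthinned), against 8.0% of microglia, cells that should lack it (24.8% unthinned). In library 2 it was seen in 90.5% of astrocytes (95.2% unthinned), against 1.18% of microglia (8.07% unthinned). The median depth of microglia was 2119.5 UMIs in library 1 and 6415 UMIs in library 2. The astrocyte shares of the libraries were alike, and the share in microglia was higher in library 1. Slc1a2 is among the genes that chose the astrocytes, and microglia were kept low in those genes. Both shares are thus partly set by how the cells were chosen, and their contrast is a description only.

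Cells on either side of the limits graded into each other. In library 1 the 89 astrocytes with 0.5 to 0.6% of their UMIs from the 5 genes had 13320 CPM summed over the 24 other astrocyte genes introduced next, and 66 barcodes just below that limit, at 0.4 to 0.5%, had 11245 CPM. The 75 astrocytes with exactly 4 UMIs from the set had 16458 CPM, against 13579 CPM in 20 barcodes with 3. On the neuronal limit, 4 astrocytes just under it had 15075 CPM and 5 barcodes just over it had 11210.0 CPM. In all, 28 barcodes of library 1 met the astrocyte genes but were over the neuronal limit and 12 were over the microglial limit; library 2 had 0 and 3.

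The label was checked on 24 astrocyte genes that the rule did not use. Their summed level in library 1 was 18114 CPM (17872 to 18359) in astrocytes, against 864 CPM in neurons, 1916 CPM in oligodendrocytes and 1299 CPM in microglia, which is 21.0 (20.4 to 21.5), 9.45 (8.93 to 10.0) and 13.9 (13.4 to 14.5) times as much. Library 2 astrocytes had 29690.5 CPM (28620 to 30791), against 1194 CPM in neurons, 1042 CPM in microglia and 1789 CPM in endothelial cells, which is 24.9 (21.2 to 29.3), 28.5 (27.3 to 29.7) and 16.6 (15.9 to 17.4) times as much. The other classes were built from their own genes, and were also kept low in the astrocyte rule genes and in the genes of the remaining classes. Astrocytes were limited on neuronal and microglial genes only. In library 1, 9 astrocytes also passed the oligodendrocyte genes and 2 passed the endothelial genes. The ratios to other classes can thus be partly set by how the classes were chosen. Classes with at least 50 barcodes were compared. Library 1 had 5089 neurons, 721 oligodendrocytes and 938 microglia. Library 2 had 135 neurons, 1611 microglia and 205 endothelial cells. The classes compared differ between the libraries, so ratios to the mean of the other classes cannot be compared across them.

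A gene was called higher or lower where its CPM plus 1 in astrocytes was at least 4-fold above or below the mean of the other classes, among genes with at least 5 CPM in any class. A class chosen by its genes and set against the rest is a description, not a test. In library 1, 21 of the 24 identity genes were called higher, where 5.4% of all 15263 genes were, and in library 2, 23 of 24 were, where 9.97% of all 15939 genes were. Their median log2 ratio was 3.99 in library 1 and 5.44 in library 2, beside medians over all genes of -0.30 and -0.75. These genes carry the label in both libraries.

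**Figure D1:**
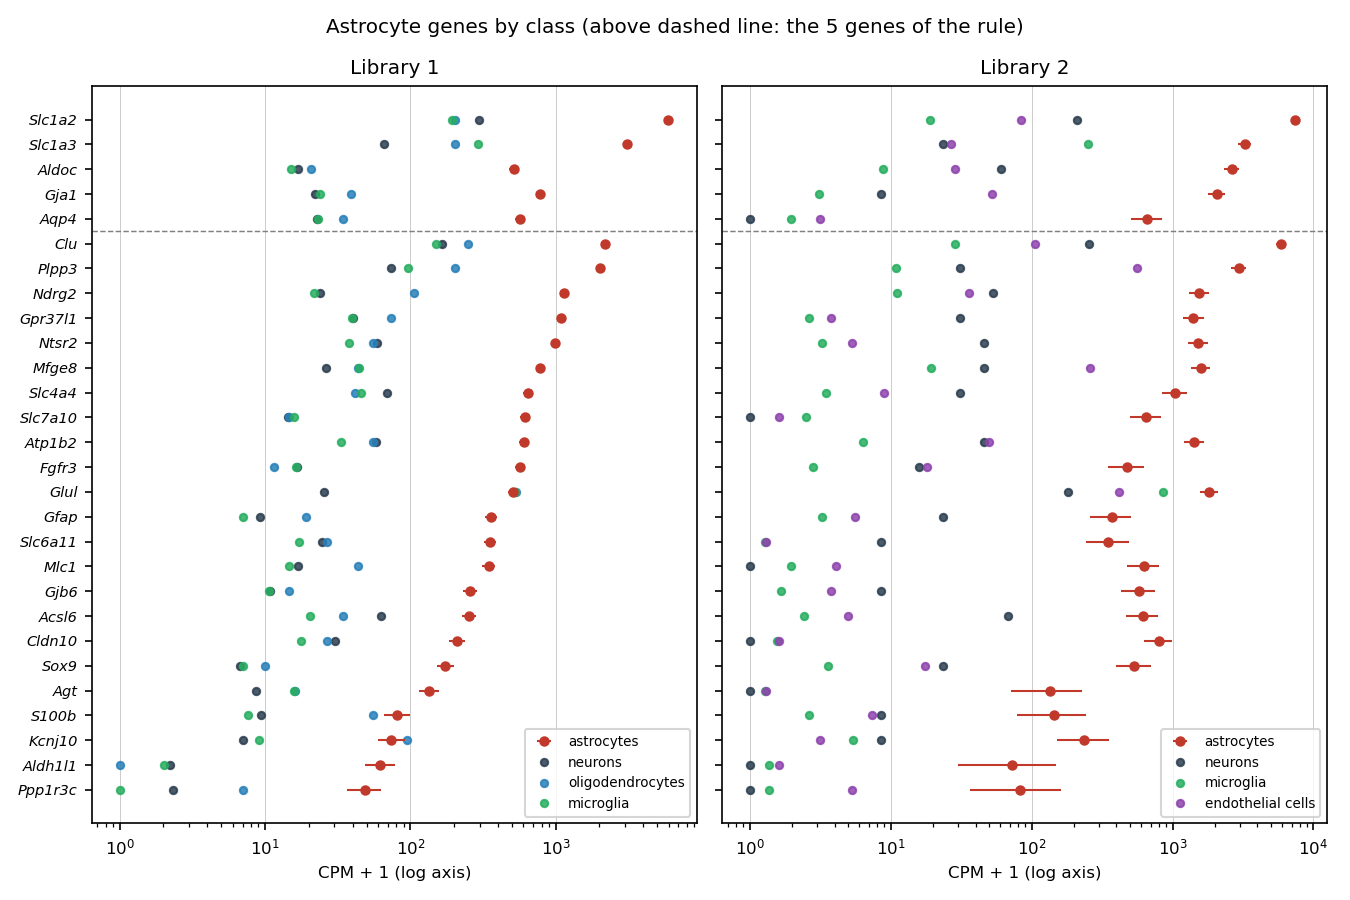
Level of the 5 rule genes and further genes of the identity list in astrocytes (red, with exact 95% counting intervals) and in the other classes of the same library, as CPM plus 1 on a log axis. Astrocytes lie to the right of the other classes for all genes drawn in library 2 and for all drawn but Glul and Kcnj10 in library 1.

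Clu, which encodes the secreted chaperone clusterin, had 2193 CPM in library 1 astrocytes and 5875 CPM in those of library 2. Plpp3, a lipid phosphate phosphatase, had 2020.4 CPM in library 1 and 2937 CPM in library 2, and Ndrg2, a gene of a cytoplasmic astrocyte protein, had 1144 and 1545 CPM in libraries 1 and 2. The best known single marker, Aldh1l1, a folate enzyme, was low but almost private to astrocytes. It had 61.2 CPM in library 1 astrocytes, against 1.23 CPM in neurons, 0 CPM in oligodendrocytes and 1.01 CPM in microglia.

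Glul and Kcnj10 did not separate astrocytes in library 1. Glul, which encodes the glutamine synthetase that turns cleared glutamate into glutamine, had 511.5 CPM (471 to 554) in astrocytes, against 532 CPM in oligodendrocytes and 528 CPM in microglia. Library 2 astrocytes had 1822 CPM (1564 to 2110) of it, against 861 CPM in microglia. At 2000 or more UMIs, Glul had 1971 CPM in 23 library 1 astrocytes and 1842 CPM in 19 of library 2. The 48 oligodendrocytes of library 2, too few to be compared, showed Glul in 56.25% of cells (41.2 to 70.5) after thinning. Astrocytes of library 2 showed it in 61.9% (38.4 to 81.9), so these shares could not be told apart. Kcnj10, the Kir4.1 potassium channel gene, had 73.1 CPM in library 1 astrocytes and 93.7 CPM in oligodendrocytes, and 235 CPM in library 2 astrocytes and at most 7.46 CPM in the classes compared there. Both genes are also known from oligodendrocytes.

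Of 14 genes for glutamate and GABA handling, 7 were called higher in library 1 and 9 in library 2. Over all genes 5.4% were called higher in library 1 and 9.97% in library 2. Slc7a10, an amino acid exchanger for D-serine and glycine, had 616 CPM in library 1 astrocytes and 13.5 to 14.7 CPM in the other classes, a level that library 2 astrocytes matched with 645 CPM. Slc7a11, the cystine-glutamate exchanger, had 767 CPM in library 1 astrocytes and 327.5 CPM in library 2 astrocytes. For GABA, the transporter gene Slc6a11 had 354 CPM in library 1 and 348 CPM in library 2, and the receptor subunit gene Gabrb1 had 733 CPM in library 1 and 747 CPM in library 2. Grm5, the metabotropic glutamate receptor gene of young astrocytes and of neurons, had 140 CPM in library 1 astrocytes against 840.1 CPM in neurons, and 0 UMIs in library 2 astrocytes, which allows up to 30.7 CPM.

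Of all genes, 5.4% were called higher in library 1 and 9.97% in library 2. For ion and water balance, 8 of 16 genes were called higher in library 1 and 9 of 16 in library 2. Among them was Dtna, a dystrobrevin of the complex that anchors Aqp4, with 1329 CPM in library 1 astrocytes and 942 CPM in library 2 astrocytes. Slc4a4, a sodium-bicarbonate cotransporter, had 644 CPM in library 1 and 1034 CPM in library 2, and the pump subunit gene Atp1b2 had 602 and 1423 CPM in libraries 1 and 2. Atp1b1, the subunit used by neurons, was not called, with 602 CPM in library 1 astrocytes against 1036 CPM in neurons. Of 8 junction genes, 3 were called higher in library 1 and 5 in library 2, among them Gjb6, the other astrocyte connexin, which had 256 CPM in library 1 and 573 CPM in library 2.

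The 24 genes for lipid handling summed to 26491 CPM in library 1 astrocytes, against 9183 CPM in oligodendrocytes, 2568 CPM in microglia and 2314 CPM in neurons. The sum in library 2 astrocytes was 37725 CPM. Of the 24 genes, 11 were called higher in library 1 and 17 in library 2, beside 5.4% and 9.97% of all genes. Most of the sum was Apoe, the gene of apolipoprotein E, with 17421 CPM (17184 to 17662) in library 1 astrocytes and 20899 CPM (20002 to 21826) in library 2 astrocytes. In library 1 Apoe had 2960 CPM in oligodendrocytes, 1393 CPM in microglia and 658 CPM in neurons. The acyl-CoA synthetase genes Acsl3 and Acsbg1 had 623 and 133 CPM in library 1, and 1003 and 348 CPM in library 2.

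Of 21 genes for glucose and glycogen, 5 were called higher in each library, beside 5.4% of all genes in library 1 and 9.97% in library 2, and the median log2 ratio was 0.24 in library 1 and -0.09 in library 2. Ppp1r3c and Ppp1r3g, targeting subunits of glycogen phosphatase, had 47.6 and 28.9 CPM in library 1 astrocytes, and 81.9 and 71.6 CPM in library 2 astrocytes. The others called higher in library 1 were Pygm and Pygb, glycogen phosphorylases, at 22.1 and 95.2 CPM, and Pdk4, a pyruvate dehydrogenase kinase gene, at 10.2 CPM; Pygb was outside the naming rule and is given after its value was seen. The glycolytic gene Gapdh had 178 CPM in library 1 astrocytes, against 106 CPM in neurons, 305 CPM in oligodendrocytes and 504 CPM in microglia. Library 2 astrocytes had 706 CPM of Gapdh, against 507.5 CPM in neurons and 493 CPM in microglia.

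Of 25 genes for extracellular matrix and synapse formation, 16 were called higher in library 1 and 19 in library 2. The shares of all genes called higher were 5.4% in library 1 and 9.97% in library 2. Bcan and Cspg5, proteoglycan genes of the perisynaptic matrix, had 1878 and 1681 CPM in library 1 and 1566 and 1443 CPM in library 2, and Sparcl1, the gene of the synapse-promoting protein hevin, had 1409 CPM in library 1 and 3377 CPM in library 2. Thbs4, a thrombospondin gene, had 97.7 CPM in library 1 astrocytes and 143 CPM in library 2 astrocytes. Cst3, the secreted protease inhibitor cystatin C, was abundant in astrocytes, at 6805 CPM in library 1 and 28739 CPM in library 2, and more abundant in microglia, at 58258 CPM in library 1 and 50850.0 CPM in library 2. The only gene of this list called lower in library 1 was Sparc, a secreted matrix glycoprotein gene, with 167 CPM in astrocytes and 2939 CPM in microglia.

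Growth factor and hormone genes showed the same bias, with 14 of 21 called higher in library 1 and 16 of 23 in library 2. For this list and the next, the shares over all genes were 5.4% in library 1 and 9.97% in library 2. Fgfr3, a fibroblast growth factor receptor gene, had 569 CPM in library 1 astrocytes against 10.6 to 15.5 CPM in the other classes, and 471 CPM in library 2 astrocytes. Pla2g7, which encodes a lipoprotein-associated phospholipase, had 553 CPM in library 1 and 1402 CPM in library 2, and Vegfa, the vascular growth factor gene, had 277 and 358 CPM in libraries 1 and 2. Of 26 genes of the Notch and Wnt pathways and of transcription factors, 16 were called higher in library 1 and 14 in library 2. In library 1 astrocytes the Notch target Hes5 had 365 CPM, the inhibitor of differentiation Id4 had 659 CPM, the glial factor Sox9 had 173 CPM and the orphan receptor gene Rorb had 646 CPM. In library 2 astrocytes Hes5 had 512 CPM, Id4 had 942 CPM, Sox9 had 532 CPM and Rorb had 634.5 CPM. Id3 had 409 CPM in library 1 astrocytes and at most 12.1 CPM in the other classes. Library 2 had 573 CPM of it in astrocytes against 1776 CPM in endothelial cells, a class that library 1 had too few of to compare.

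The 25 genes with the highest ratio in library 1, outside the rule genes and with at least 100 UMIs, were led by Etnppl, a phosphoethanolamine phospholyase. It had 339.8 CPM (307 to 375) in library 1 astrocytes and 3.02 to 4.06 CPM in the other classes, and 133 CPM in library 2 astrocytes. Gm6145 and AW047730, predicted or uncharacterised transcripts, had 585 and 223 CPM in library 1 and 522 and 307 CPM in library 2. Grin2c, an NMDA receptor subunit gene, had 310.1 CPM in library 1 and 307 CPM in library 2, and Phkg1, a subunit of the phosphorylase kinase that activates glycogen breakdown, had 1163 and 512 CPM in libraries 1 and 2. The developmental factor gene Pax6 had 215 CPM in library 1 and 184 CPM in library 2, and the ectonucleotidase gene Entpd2 had 206 and 235 CPM in libraries 1 and 2. The other members were Atp13a4, Nwd1, Cyp4f15, Gm37079, Id3, Slc7a10, Rorb, Prex2, Fgfr3, Plcd4, Cbs, Hes5, Gm14964, Id4, Gfap, Acsbg1, Prrx1 and Fam107a. In library 2, 24 of these 25 were also above the mean of the other classes, all but Id3. Of all 15939 genes tested there, 5828 were above that mean. The same rule chose the astrocytes of both libraries, so this count is a description only.

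Metallothioneins, small proteins that bind zinc and copper and are induced by metals, glucocorticoids and oxidative stress, were among the genes furthest apart between the astrocytes of the libraries. Mt1 had 665 CPM (619.5 to 714) in library 1 astrocytes, against 36.2 CPM in neurons, 207 CPM in oligodendrocytes and 83.7 CPM in microglia. Library 2 astrocytes had 8413 CPM (7848 to 9008) of it, against 82.1 CPM in neurons, 178 CPM in microglia and 481 CPM in endothelial cells. Mt2 had 147 CPM in library 1 astrocytes and 1453 CPM in library 2 astrocytes, and Mt3, the brain form, had 423 CPM in library 1 and 3490.0 CPM in library 2. These sums set shallow cells against deeper ones, and the gap was smaller at like depth. At 2000 or more UMIs, 23 library 1 astrocytes had 3493.5 CPM of Mt1, 597 CPM of Mt2 and 1642 CPM of Mt3. The 19 of library 2 at that depth had 8432, 1453 and 3516 CPM. The part of depth was not tested. In both libraries astrocytes stood above every other class compared for all 3 genes. After thinning, an Mt1 UMI was found in 20.1% of library 1 astrocytes (30.7% unthinned) and 4.58% of microglia (15.1% unthinned). In library 2 the shares were 61.9% of astrocytes (81.0% unthinned) and 6.46% of microglia (42.1% unthinned).

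The 3 genes lie in a cluster on the forward strand of mouse chromosome 8, and Mt1 and Mt2 are known to be switched on by the metal-sensing factor MTF1 through metal response elements in their promoters. Their promoters are shown because the 3 genes varied together across astrocytes, as given next. Each is the stretch of 250 bases before the start annotated by RefSeq on GRCm38.p6, and capitals mark the element core TGCACNC or TGCGCNC on either strand, with 0 overlaps between matches. The Mt1 stretch is chr8:94178839-94179088, the Mt2 stretch is chr8:94172368-94172617 and the Mt3 stretch is chr8:94152357-94152606.
Mt1: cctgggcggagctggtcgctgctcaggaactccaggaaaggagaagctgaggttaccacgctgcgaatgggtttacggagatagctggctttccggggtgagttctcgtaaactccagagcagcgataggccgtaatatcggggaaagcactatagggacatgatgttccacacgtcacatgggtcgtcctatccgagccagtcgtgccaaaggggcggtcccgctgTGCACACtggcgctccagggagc
Mt2: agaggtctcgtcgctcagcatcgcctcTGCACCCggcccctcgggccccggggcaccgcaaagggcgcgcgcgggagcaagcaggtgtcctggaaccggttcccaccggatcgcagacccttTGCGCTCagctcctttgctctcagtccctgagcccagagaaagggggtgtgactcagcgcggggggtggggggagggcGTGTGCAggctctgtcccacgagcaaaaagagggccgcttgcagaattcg
Mt3: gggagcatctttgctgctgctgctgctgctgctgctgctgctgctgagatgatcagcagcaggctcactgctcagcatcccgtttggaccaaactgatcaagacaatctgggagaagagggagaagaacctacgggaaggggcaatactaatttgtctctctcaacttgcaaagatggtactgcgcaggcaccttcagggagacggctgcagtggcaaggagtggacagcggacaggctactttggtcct
The Mt1 stretch held 1 match, the Mt2 stretch held 3 and the Mt3 stretch held 0. Of all 32851 promoters of the same length, 21.4% held at least 1 match and 1.26% held at least 3, so a match describes letters and not a bound site.

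Within the wider list of 19 metallothionein and antioxidant genes, 6 were called higher and 2 lower in library 1. Over all genes of library 1, 5.4% were called higher and 9.43% lower. Library 2 had 7 higher and 4 lower, where 9.97% of all genes were called higher and 32% lower. The lower genes of the list were thus a share near that of all genes in library 1 and below it in library 2. Prdx6, a peroxiredoxin gene, had 1478 CPM in library 1 and 1627 CPM in library 2, and Cbs, the first enzyme of the transsulphuration route to glutathione, had 205 and 164 CPM in libraries 1 and 2. The 2 lower genes in library 1 were Txnip, an inhibitor of thioredoxin, and Gpx1, a glutathione peroxidase, at 18.7 and 15.3 CPM in astrocytes against 426 and 252 CPM in microglia.

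Cells of both libraries differed in how much of their RNA came from 81 ribosomal protein genes, and the metallothioneins went with it. The median share was 0.627% in library 1 astrocytes and 1.28% in library 2 astrocytes, and 5.34% in library 1 microglia and 7.37% in library 2 microglia. Bands of under 1%, 1 to under 2% and 2% or more, set after these values had been seen, held 1103, 163 and 34 astrocytes of library 1. Over these bands Mt1 stood at 491, 809 and 3562 CPM, Mt3 at 339, 647 and 1398 CPM, and Cst3 at 5442, 9009 and 26449 CPM. Slc1a2 stood at 5953, 5971 and 5554 CPM, but the rule used it, so its level is partly set by how the cells were chosen. Transcripts of another cell type moved with the bands too: the 13 microglial genes had 353, 809 and 8255 CPM, and mitochondrial RNA had 28354, 34369 and 54737 CPM. Without the 3 sub-clusters described further on that carry genes of other cell types, Mt1 in library 1 was 487 CPM and Cst3 was 5743 CPM, against 665 and 6805 CPM with them.

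The 9, 4 and 8 astrocytes of library 2 in the same bands differed more. Mt1 stood at 334 (153 to 634), 10020.4 (8653 to 11542) and 12035 (11107 to 13019.5) CPM, and Cst3 at 1225, 36846 and 40096 CPM. Apoe stood at 3154.5, 21972 and 29767 CPM. The microglial genes did not follow here, with 668, 418 and 853 CPM. The 24 identity genes were at 13397, 39768 and 34457 CPM, against 17478, 20247 and 24266 CPM in the bands of library 1.

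Cell by cell, 12 of the 21 astrocytes of library 2 had at least 1% ribosomal protein transcripts and 9 had under 1%, a cut set after the data had been seen. Raw UMIs of Mt1 and of Cst3 did not overlap between these sets, and neither did the level of the identity genes. How many of all genes also did not overlap was not counted. The 12 had 10 to 128 Mt1 UMIs with a median of 61, and the 9 had 0 to 3. Cst3 had 11 to 399 UMIs in the 12 and 0 to 8 in the 9. Identity genes ranged over 20915 to 51224 CPM in the 12 and 9712 to 17832 CPM in the 9. The nuclear RNA Malat1 took 2.75 to 18.2% of the UMIs of the 12 and 16.3 to 39.4% of those of the 9. Depth differed as well, with medians of 6322 UMIs in the 12 and 2622 UMIs in the 9, and its part was not tested.

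**Figure D2:**
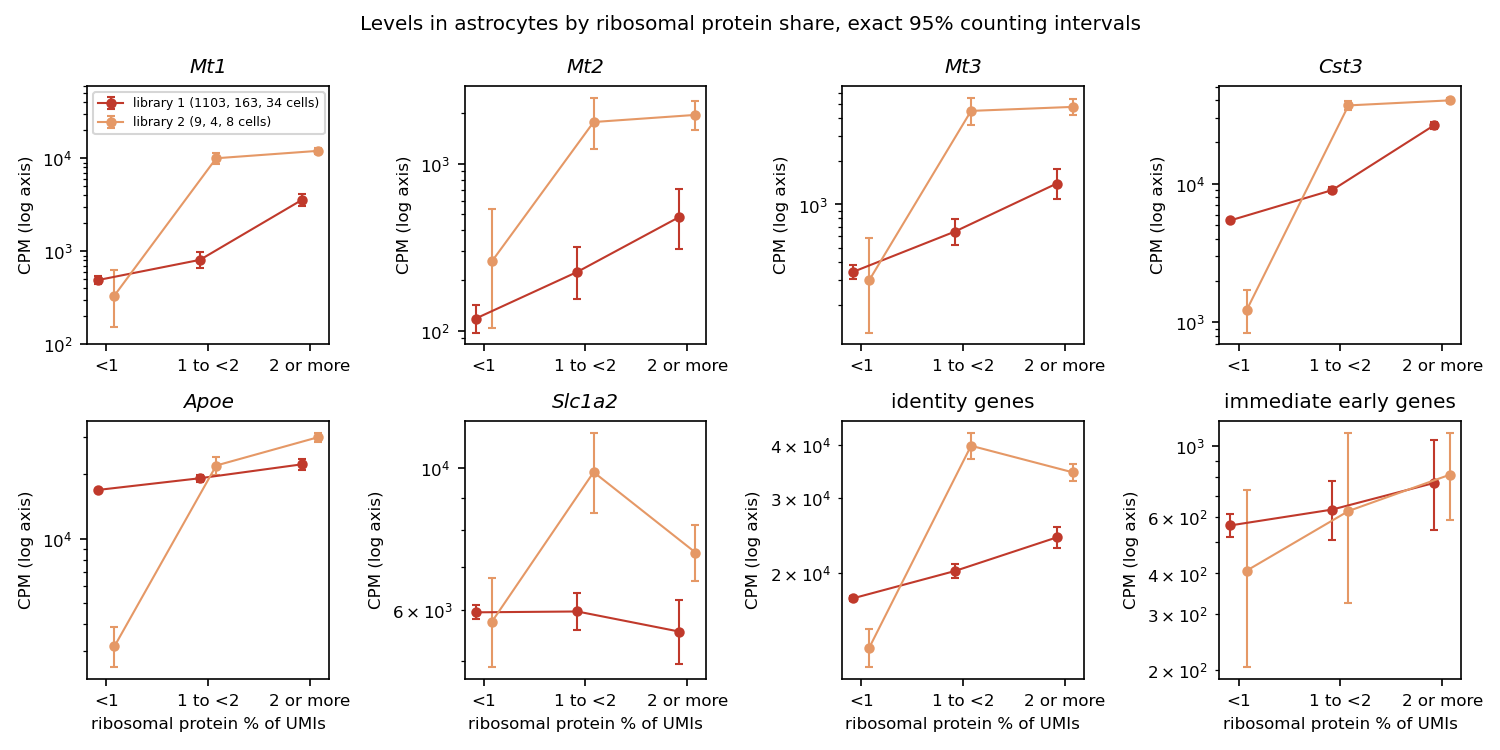
Levels in astrocytes (CPM, log axes) by the share of each cell's UMIs from ribosomal protein genes, for library 1 and library 2, with exact 95% counting intervals. Mt1, Mt2, Mt3 and Cst3 stood higher in the upper bands of both libraries, and in the lowest band the Mt1 intervals overlapped, at 491 CPM in library 1 and 334 CPM in library 2.

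Malat1 was the most abundant RNA of astrocytes. It made up 24.6% of their UMIs in library 1, against 14.4% in neurons, 17.0% in oligodendrocytes and 4.74% in microglia. The share in library 2 was 15.5% in astrocytes, against 2.77% in neurons, 3.39% in microglia and 3.82% in endothelial cells. Over the 3 ribosomal bands it was 25.6, 21.1 and 14.6% in library 1 and 27.5, 11.3 and 10.7% in library 2. Its share was thus lowest where ribosomal protein transcripts were most abundant, in both libraries.

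Immediate early genes, which many cells switch on within minutes of a stimulus and which the series bears on through digestion at 37 °C, were low in astrocytes of both libraries. The 27 genes summed to 582 CPM (539 to 627) in library 1 astrocytes, against 952 CPM in neurons, 943 CPM in oligodendrocytes and 2820.3 CPM in microglia. Library 2 astrocytes had 665 CPM (513 to 848) of them, against 1493 CPM in neurons, 20379 CPM in microglia and 18279 CPM in endothelial cells. The astrocyte sums of the libraries overlapped in their intervals while those of microglia lay far apart. Astrocytes were 4.85 times (4.47 to 5.25) lower than microglia in library 1 and 30.6 times (24 to 39.7) lower in library 2.

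Gene by gene, 0 of 26 immediate early genes were called higher and 6 lower in library 1, where 9.43% of all genes were called lower. The lower count there was 11 among cells with at least 1000 UMIs and 2 with CPM plus 10. In library 2, 0 of 27 were higher and 25 lower, where 32% of all genes were lower, and the lower count was 22 among cells with at least 1000 UMIs and 19 with CPM plus 10. The astrocytes of library 2 gave 97708 UMIs in all, against 1176995 in library 1, and each of the 27 genes had under 20 UMIs in library 2. Jun, a subunit of the AP-1 factor, had 55.2 CPM (42.6 to 70.4) in library 1 astrocytes and 40.9 CPM (11.2 to 105) in library 2 astrocytes, against 209.6 CPM in library 1 microglia and 3412 CPM in library 2 microglia. Btg1, an antiproliferative gene, was the highest of the list in astrocytes, at 112 CPM in library 1 and 184 CPM in library 2. Its relative Btg2 had 74.8 and 20.5 CPM in libraries 1 and 2. The AP-1 gene Jund had 67.1 CPM in library 1 and 81.9 CPM in library 2, and Rhob, a small GTPase gene, had 62.9 and 81.9 CPM in libraries 1 and 2. All 5 were lower in astrocytes than in the microglia of the same library.

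After thinning, Btg1, Jund, Klf2 and Rhob were each seen in 1 of the 21 astrocytes of library 2 (4.76%), and the other genes of the list in 0. The exact interval of 0 of 21 reaches up to 16.1% of cells with a UMI at 500 UMIs, and it limits neither cells that express the gene nor its level. Among the genes at 0 were Fos, Jun, Junb, Zfp36, Btg2, Egr1 and Ier2. In microglia the shares of these genes ran between 13.0% for Ier2 and 44.1% for Junb, with Jun at 43.1% and Fos at 22.5%, so for Ier2 the shares could not be told apart. Unthinned, Jun was seen in 19.0% of astrocytes (4 of 21) and 72.2% of microglia, with median depths of 3618 and 6415 UMIs. In library 1 Jun was seen in 2.85% of astrocytes and 5.33% of microglia after thinning, and in 4.77% of astrocytes and 21.9% of microglia without it. Single astrocytes reached at most 5841 CPM over the 27 genes in library 1 and 1307 CPM in library 2, where the median microglial cell had 5764 CPM.

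Heat shock genes were also lower in astrocytes than in microglia. The 12 heat shock genes summed to 797 CPM in library 1 astrocytes, against 896 CPM in neurons, 3031 CPM in oligodendrocytes and 2454 CPM in microglia, and 0 of 11 tested were called higher and 1 lower, a share near the 9.43% of all genes called lower. The sum in library 2 was 1474 CPM in astrocytes, against 1829 CPM in neurons and 4403 CPM in microglia, with 0 of 12 higher and 5 lower, beside 32% of all genes called lower. The inducible Hsp70 gene Hspa1a had 1 UMI in library 1 astrocytes and 0 in library 2 astrocytes, where microglia had 347 CPM. The constitutive chaperone gene Hspa8 had 183 CPM in library 1 astrocytes and 399 CPM in library 2 astrocytes.

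Of the NF-kB and cytokine genes, 1 was called higher and 8 lower of 18 in library 1, and 0 higher and 17 lower of 20 in library 2. Over all genes 5.4% were called higher and 9.43% lower in library 1, and 9.97% higher and 32% lower in library 2. The gene called higher was Vcam1, an adhesion molecule gene, with 111 CPM in library 1 astrocytes and 7 to 18.1 CPM in the other classes. The list summed to 311 CPM in library 1 astrocytes, against 138 CPM in neurons, 147 CPM in oligodendrocytes and 826 CPM in microglia, and to 256 CPM in library 2 astrocytes, against 216 CPM in neurons and 3390.3 CPM in microglia. The cytokine genes Tnf, Il1b, Il6, Ccl2 and Cxcl2 had 0 UMIs in the astrocytes of both libraries, which allows up to 2.55 CPM in library 1 and 30.7 CPM in library 2. The unfolded protein genes summed to 1065 CPM in library 1 astrocytes and 1371 CPM in library 2 astrocytes, against 2988 CPM in library 1 microglia and 3192 CPM in library 2 microglia. The interferon genes summed to 195 CPM in library 1 astrocytes and 194.5 CPM in library 2 astrocytes, against 369 CPM in library 1 microglia and 396 CPM in library 2 microglia.

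**Figure D3:**
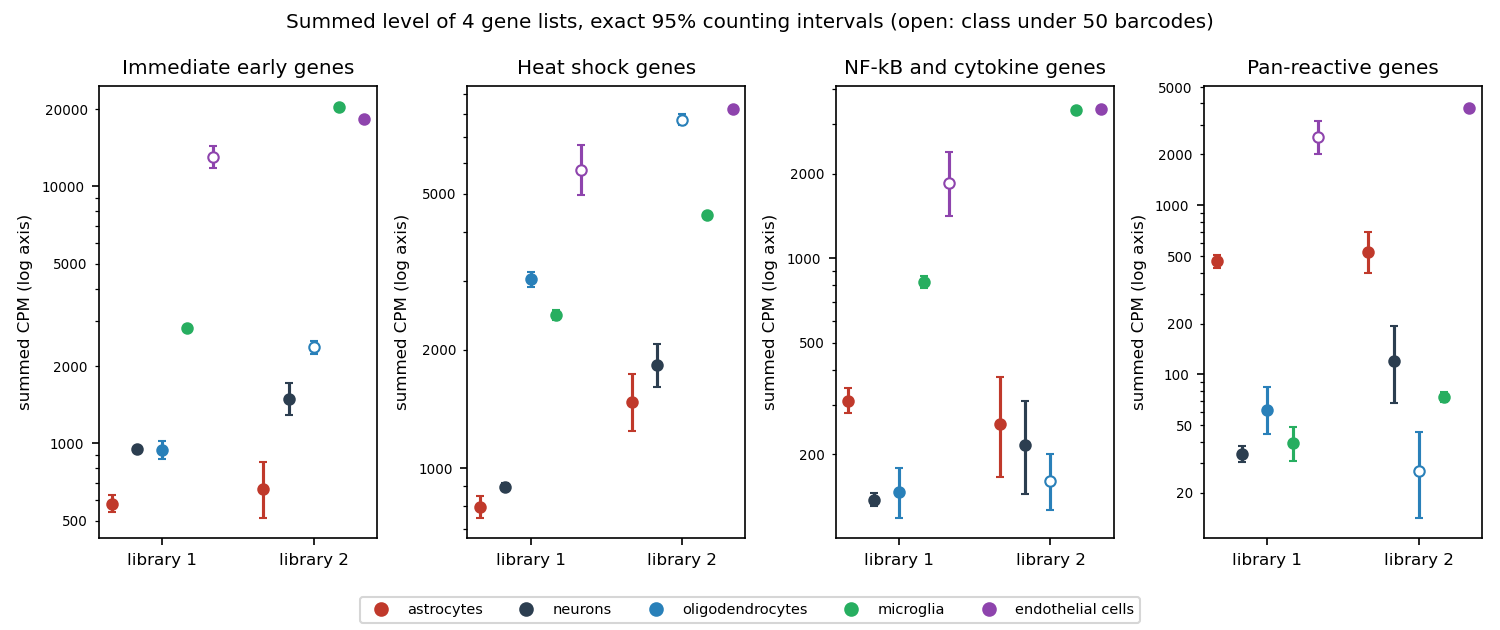
Summed level of the immediate early, heat shock, NF-kB and cytokine, and pan-reactive genes in each class (CPM, log axes) with exact 95% counting intervals, library 1 left and library 2 right in each panel. Astrocytes of both libraries stood at 582 and 665 CPM for immediate early genes, while microglia stood at 2820.3 CPM in library 1 and 20379 CPM in library 2.

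Gfap made up most of the reactive gene RNA. The 13 pan-reactive genes, those raised in astrocytes by several kinds of injury in mice, summed to 466 CPM (428 to 507) in library 1 astrocytes and 532 CPM (397.5 to 698) in library 2 astrocytes. Gfap made up 359 CPM of this in library 1 and 368 CPM in library 2, and without it the other 12 genes had 107 CPM in library 1, with an interval of 89.2 to 127.5 CPM, and 164 CPM in library 2, with an interval of 93.6 to 266 CPM. In library 1, 5 of the 8 tested genes were called higher, Gfap and 4 others, among them Aspg, an asparaginase, at 15.3 CPM and Vim, the filament partner of Gfap, at 25.5 CPM. In library 2, 2 of 13 were higher and 7 lower, with endothelial cells, which express many of these genes, among the classes compared. Over all genes 5.4% were called higher in library 1, and 9.97% were called higher and 32% lower in library 2. Lcn2, Steap4 and Timp1 had 0 UMIs in the astrocytes of both libraries.

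The genes linked to the so-called A1 and A2 forms of reactive astrocytes summed to less than the pan-reactive list. The A1 genes summed to 110 CPM in library 1 astrocytes and 123 CPM in library 2 astrocytes, against 755 CPM in library 1 microglia and 1135 CPM in library 2 microglia. Of these, 2 of 11 were called higher and 3 lower in library 1, and 1 of 12 higher and 10 lower in library 2. Over all genes 5.4% were called higher and 9.43% lower in library 1, and 9.97% higher and 32% lower in library 2. The 1 higher gene of library 2 is a share near that of all genes. The A2 genes summed to 33.1 CPM in library 1 astrocytes and 51.2 CPM in library 2 astrocytes, with 0 of 6 higher in library 1 and 0 of 7 in library 2. Microglia held 341 CPM of the A2 genes in library 1 and 485 CPM in library 2, so both lists summed higher there than in astrocytes.

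Gfap itself was uneven among astrocytes. After thinning it was seen in 175 of 1300 library 1 astrocytes, 13.5% (11.7 to 15.4), against 0.373% of neurons and 0.533% of microglia, and in 22.2% unthinned. Library 2 had it in 3 of 21 astrocytes, 14.3% (3.05 to 36.3), against 0.0621% of microglia, and in 71.4% of astrocytes unthinned. The 175 cells with and the 1125 without a Gfap UMI were then compared on other genes at 500 UMIs each, among 235 genes with at least 30 UMIs in the first set. The cells share 1 library and are not replicates, so the ratios are descriptions with counting intervals.

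Myoc, which encodes the secreted protein myocilin, led with 710 CPM in astrocytes with a Gfap UMI and 197 CPM in those without, a ratio of 3.60 (2.6 to 4.96). Igfbp5, an insulin-like growth factor binding protein gene, followed at 2.36, then the complement gene C4b at 2.32, the tight junction gene Usp53 at 2.21 and Aqp4 at 2.12 (1.66 to 2.69). The rest of the first 10 were Nav2, Slc20a1, Epha5, Id3 and Nsmf, at 1.79 to 1.64. Id1, with fewer UMIs, stood at 3.22 (1.57 to 6.33). The exchanger gene Slc7a10, which the rule did not use, stood at 1.00 (0.731 to 1.35). Aqp4, Slc1a2 and Slc1a3 are rule genes, so their ratios are partly set by how the cells were chosen; Slc1a2 stood at 1.06 (0.965 to 1.16) and Slc1a3 at 0.853 (0.743 to 0.977). At 1000 UMIs, which 319 cells reached, the Aqp4 ratio was 1.38 (0.953 to 1.96), an interval that includes 1.

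**Figure D4:**
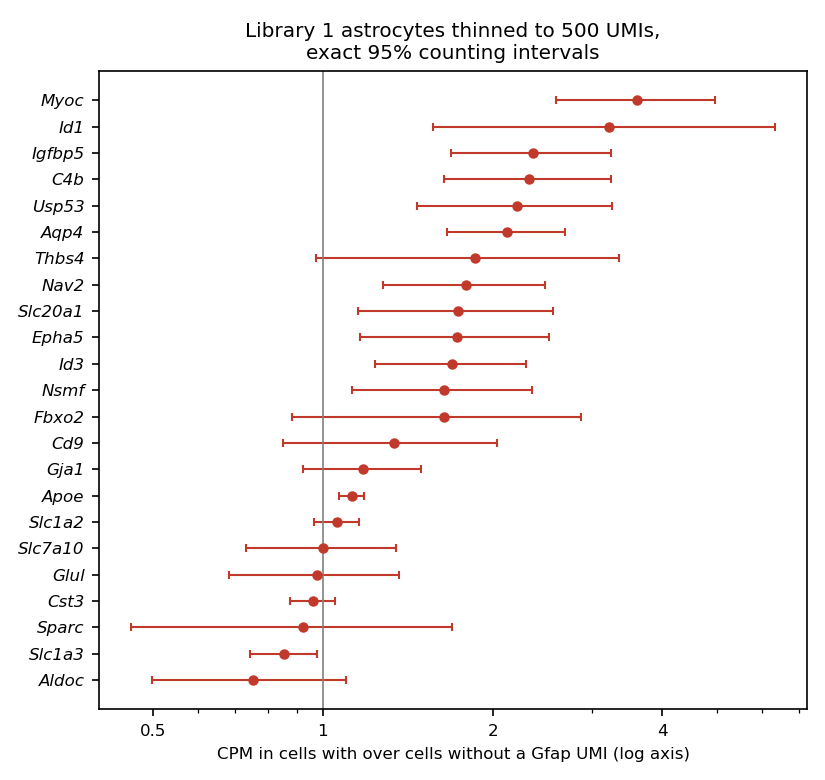
Ratio of CPM in library 1 astrocytes with over those without a Gfap UMI, at 500 UMIs per cell, with exact 95% counting intervals on a log axis. Myoc, Id1, Igfbp5, C4b, Usp53 and Aqp4 lie to the right of 1 with intervals that exclude it, and the intervals of Slc1a2, Slc7a10 and Glul include 1.

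Clustering of the 1300 astrocytes of library 1 gave 5 sub-clusters, whose leading genes are descriptions since the clusters were made from them. Sub-cluster 1 held 886 cells, 68.2%, and was led by Slc7a10, Ttll3, Etnppl, Paqr6 and Sat1. Sub-cluster 2 held 291 cells, 22.4%, and was led by Myoc, Igfbp5, Slc38a1, Disp3 and Aqp4. It had 957 CPM of Myoc against 35.4 CPM in the other astrocytes, and 859 CPM of Gfap against 232 CPM in sub-cluster 1. It had 1341 CPM of Aqp4 against 349 CPM in sub-cluster 1, and 233 CPM of Slc7a10 against 753 CPM there. Id3 stood at 908 CPM in it and 260.3 CPM in sub-cluster 1. The median depth was 797 UMIs in sub-cluster 2 and 820.0 UMIs in sub-cluster 1, and the microglial genes summed to 397 CPM in sub-cluster 2 and 309 CPM in sub-cluster 1.

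The other 3 sub-clusters each carried genes of another cell type. Sub-cluster 3 had 49 cells, was led by Mbp, Hapln2, Map7, Mag and Gjc3, and summed to 13135 CPM over 12 oligodendrocyte genes, against 1966 CPM in sub-cluster 1. Sub-cluster 5 had 33 cells and was led by Tmem108, Gm43670, Grin2a, Lrrc7 and Gm42772, with 6201 CPM over 13 neuronal genes against 2280.2 CPM. Sub-cluster 4 had 41 cells and was led by the microglial genes C1qa, C1qb, C1qc, Ctss and Tyrobp, and summed to 7091 CPM over the 13 microglial genes. Of the 5 sub-clusters it also had the most Mt1, with 3442 CPM, the most Aldoc, with 2960.3 CPM, and the most ribosomal protein RNA, with 26285 CPM against 6316 CPM in sub-cluster 1. The 24 identity genes summed to 26946 CPM in sub-cluster 4, above the 18669 CPM of sub-cluster 1, whereas sub-clusters 3 and 5 had 12009.7 and 9644 CPM. These 3 sub-clusters stay unnamed. Scrublet, a doublet caller, marked 103 of the 1300 astrocytes of library 1, and the part of mixed barcodes in the sub-clusters was not tested.

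**Figure D5:**
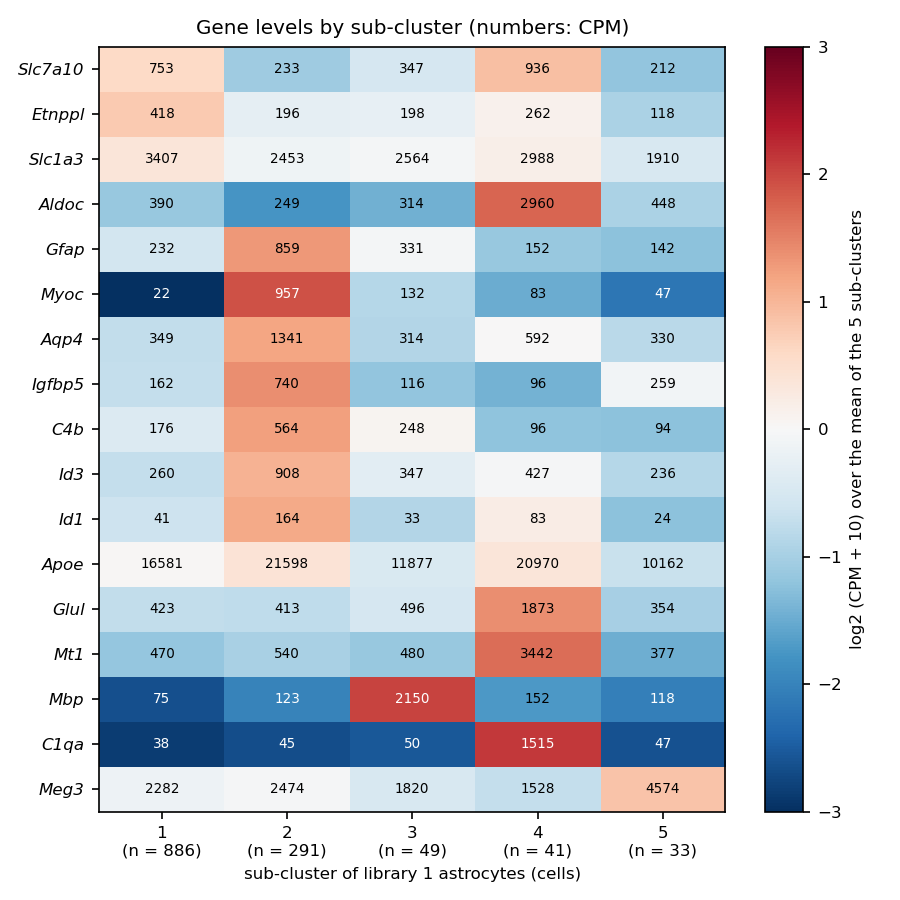
Level of single genes in the 5 sub-clusters of library 1 astrocytes; numbers are CPM and colours give log2 of CPM plus 10 over the mean of the sub-clusters. Sub-cluster 2 holds the most Gfap, Myoc, Aqp4, Igfbp5, C4b, Id3 and Id1, and sub-clusters 3 and 4 hold the most Mbp and C1qa.

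Genes of other cell types were present at low levels throughout. The 15 neuronal genes summed to 5740.0 CPM in library 1 astrocytes, against 5508 CPM in oligodendrocytes, 4750 CPM in microglia and 66668 CPM in neurons. Without the 2 genes that the rule limits, the sum was 2394 CPM in astrocytes, 2043 CPM in oligodendrocytes and 2009 CPM in microglia. Over all 15 genes library 2 had 901 CPM in astrocytes and 1014 CPM in microglia. The oligodendrocyte genes summed to 2541 CPM in library 1 astrocytes and 256 CPM in library 2 astrocytes. Of 13 microglial genes all 13 were called lower in each library, with sums of 759 CPM in library 1 astrocytes and 716 CPM in library 2 astrocytes. Over all genes 9.43% were called lower in library 1 and 32% in library 2.

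Traces of vascular and other types were seen in both libraries. The endothelial genes summed to 441 CPM in library 1 astrocytes and 573 CPM in library 2 astrocytes, most of it Bsg, which is not private to vessels, at 386 CPM in library 1 and 471 CPM in library 2. The 9 mural genes summed to 296.5 CPM in library 1 astrocytes, against 17.8 to 66.5 CPM in the other classes compared. Of the 5 tested there, 4 were called higher in astrocytes, beside 5.4% of all genes. In library 2, 0 of 9 were called higher and 6 lower, beside 9.97% and 32% of all genes. The mural sum there was 164 CPM (93.6 to 266) in astrocytes, 149 CPM in neurons, 67.8 CPM in microglia and 1856 CPM in endothelial cells. Endothelial cells were among the classes compared in library 2 only, so the calls of the libraries cannot be set against each other. The mural receptor gene Pdgfrb had 215 CPM in library 1 astrocytes and 5.08 to 8.03 CPM in the other classes. The pericyte marker Rgs5 had 0 UMIs in library 1 astrocytes and 1 in library 2 astrocytes. Ttr, the choroid plexus transthyretin gene, had 449 CPM in library 1 astrocytes, against 300.5 to 523 CPM in the other classes, and 2006 CPM in library 2 astrocytes against 14941 CPM in neurons. The choroid plexus genes, Ttr included, summed to 667 CPM in library 1 astrocytes and 2374 CPM in library 2 astrocytes, in library 2 above the neuronal, microglial and oligodendrocyte sums. Of 15 genes of radial glia and neural stem cells, 5 were called higher and 1 lower in library 1. Of 16 in library 2, 8 were higher and 3 lower. Over all genes 5.4% were called higher and 9.43% lower in library 1, and 9.97% higher and 32% lower in library 2. The lower counts of this list were below those shares. Hopx, known from quiescent stem cells and from astrocytes, had 119 CPM in library 1 astrocytes and 1013 CPM in library 2 astrocytes, and Fabp7, a fatty acid binding protein gene, had 27.2 and 40.9 CPM in libraries 1 and 2. The progenitor filament gene Nes had 2 UMIs in library 1 astrocytes and 1 in library 2 astrocytes, and the cell-cycle gene Cdk1 had 0 in both.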

How the data were processed

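Droplet single-cell RNA counts (10x Chromium 3' chemistry, per the labels' protocols) of 2 hippocampal libraries were used. The deposited files hold UMI counts per gene and barcode that the authors made with Cell Ranger 3.0.1 on GRCm38.p5, per the submitters' processing notes; other upstream steps are not given in the sources used here. Both libraries passed into the analysis whole, with 41605 genes. Classes were set by marker thresholds, UMIs were summed per class and scaled to CPM, and genes with at least 5 CPM in any compared class were tested for a 4-fold ratio of CPM plus 1. Intervals are exact Poisson (levels) and Clopper-Pearson (shares); 0 counts allow 3 counts, 2.55 CPM in library 1 and 30.7 CPM in library 2 astrocytes. Cells were thinned to 500 UMIs with 1 fixed seed. Sub-clusters came from Leiden clustering of library 1 astrocytes (1000 variable genes, 15 components, 15 neighbours, resolution 0.5; scanpy 1.11.5, leidenalg 0.10.2). Doublets were marked with Scrublet and kept: its automatic threshold marked 12.8% of library 1 barcodes and 0% of library 2, where the expected share of 5.16% was used instead. Other tools were Python 3.11.15, numpy 2.4.6, scipy 1.17.1, pandas 2.3.3 and matplotlib 3.10.9. The calculations were tested on simulated data. Named genes were the 5 most abundant of each list, any list gene at least 4-fold above every class in library 1, defining markers at 0, the 25 highest ratios, the 10 highest Gfap ratios, 5 genes per sub-cluster and 12 genes each way between libraries; a few others are named for contrast, and some genes that the rule picks are not reported here. The members, gene lists and tests were chosen with earlier results of these data known, and the ribosomal bands and the run without sub-clusters 3, 4 and 5 were chosen after seeing the data. Limits, pseudocount, filter, thinning depth and summing were varied. Promoters are from RefSeq on GRCm38.p6.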

Additional observations from a re-analysis of the deposited data

How the results depend on the processing

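Without replicates no alternative carries a test; a result is given here where it left its counting interval or, for gene counts, moved by over 1.5 times. Of the main results under all alternatives run, 39 of 65 in library 1 and 36 of 56 in library 2 stayed inside, and CPM values moved by over 1.5 times in 3 cases in library 1 and 37 in library 2. In library 1 the astrocyte share of 11.5% became 4.41% at 1000 UMIs and 500 genes, 10.9% at 5% mitochondrial UMIs, 5.97% with rule genes at 1% of UMIs, 10.8% with the neuronal limit at 0.75% and 12.1% without Scrublet calls. Identity genes in library 1 summed to 17637, 17557, 19781 and 18789 CPM at 1000 UMIs, at 5% mitochondrial UMIs, with rule genes at 1% and without Scrublet calls, and to 17478 CPM in cells under 1% ribosomal. Immediate early genes in library 1 were at 634 CPM with rule genes at 1%. Neuronal genes in library 1 were at 4870.0, 5899, 5512, 5331 and 5541 CPM under the 5 settings in that order, and at 6005 CPM as a mean of cells. In library 2, 5% mitochondrial UMIs gave 18146 CPM for identity, 343 CPM for immediate early, 858 CPM for pan-reactive and 1759 CPM for neuronal genes; the 9 cells under 1% ribosomal gave 13397, 408, 779 and 1670.0 CPM for the same lists. Rule genes at 1% gave 33076 CPM for identity and 711 CPM for neuronal genes in library 2, a mean of cells gave 26566 and 1219 CPM, and 20% mitochondrial UMIs gave 1225 CPM for neuronal genes. Genes called higher were 302 in library 1 and 553 in library 2 at CPM plus 10, against 824 and 1589; 205 in library 2 with at least 20 UMIs; and 2412 in library 2 at 1000 UMIs. Genes called lower were 394 in library 1 and 1342 in library 2 at CPM plus 10, and 243 and 32 with at least 20 UMIs, against 1439 and 5098; the 20 UMIs are asked of astrocytes, so this filter removes lower genes by construction. Immediate early genes called lower in library 1 were 11 at 1000 UMIs, 2 at CPM plus 10 and 2 with at least 20 UMIs, and 0 in library 2 with at least 20 UMIs. Thinned to 1000 UMIs, Gfap was seen in 21% of library 1 and 40% of library 2 astrocytes, and the ratios for cells with a Gfap UMI were 1.38 for Aqp4 and 0.957 for Slc1a2. The cause of these shifts was not tested. No paired analysis was possible because each library is a single sample of no stated group. Depth limits library 2 most, with 97708 UMIs in 21 cells.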

Other observations

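Set side by side, the astrocytes of the libraries had 4445 genes with at least 50 UMIs over both. The interval of the ratio of library 1 over library 2 lay above 1 for 514, below 1 for 539 and spanned 1 for 3392. These intervals cover counting error only, not the spread between cells. With single samples, differences between mice, preparation, library, sequencing, depth and the mix of cells cannot be told apart. Among the 12 genes highest in library 1 relative to library 2 were genes of myelin and neurons. Rtn1 had 709 and 20.5 CPM in libraries 1 and 2, and Ptgds had 1581 and 133 CPM in libraries 1 and 2. The neuronal RNAs Meg3 and Snhg11, which the rule limits, had 2334 and 1012 CPM in library 1 and 174 and 61.4 CPM in library 2. Cck and Mal had 438 and 266 CPM in library 1 and 1 UMI each in library 2. Ly6h, Slc17a7, Caly, Mbp and Cldn11 had 362, 228.5, 211, 198 and 175 CPM in library 1 and 0 UMIs in library 2. Rtn1 had 682 CPM and Ly6h 394 CPM in library 1 oligodendrocytes, levels near those in the astrocytes of that library.

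Among the 12 genes highest in library 2 relative to library 1 were Zfp935, a zinc finger gene, at 14.4 CPM in library 1 and 429.9 CPM in library 2, and the 3 metallothioneins of the report. Dbi, which encodes an acyl-CoA binding protein, had 148 CPM in library 1 and 1310.0 CPM in library 2, and Hopx had 119 and 1013 CPM in libraries 1 and 2. Zfp935 was at 37.3 CPM in library 2 neurons and 22.3 CPM in library 2 microglia, both lower than in the astrocytes of that library. Uqcr11, a respiratory chain subunit gene, had 35.7 and 358 CPM, the histone gene Hist1h2bc had 30.6 and 297 CPM, and the ribosomal protein gene Rpl38 had 45.0 and 389 CPM in libraries 1 and 2. The transcripts Gm42418, Lars2 and Mir6236 had 1390.0, 30.6 and 51.0 CPM in library 1 astrocytes and 12568, 512 and 614 CPM in library 2 astrocytes. They were not particular to astrocytes: Gm42418 had 92552 CPM in library 2 neurons and 11085 CPM in library 2 microglia.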
